A study of Pan troglodytes with 38 samples.

Results

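The mitochondrial ribosomal protein genes are nuclear genes for proteins of the mitoribosome, the ribosome inside mitochondria. They were taken here as every gene of the chimpanzee gene count table whose symbol starts with MRPL or MRPS followed by a number. This gave 76 members among 31373 genes, of which 18040 carried a symbol. Of the members, 49 had MRPL names, given to proteins of the large subunit, and 27 had MRPS names, given to proteins of the small subunit.

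The mitoribosome translates the few messenger RNAs of the mitochondrial genome, whose products are subunits of the respiratory chain and of ATP synthase. All of its proteins are encoded in the nucleus and imported, while its ribosomal RNAs come from the mitochondrial genome, so that both genomes contribute to each particle. Some of the proteins have a counterpart in the bacterial ribosome and others are found only in mitochondria, and heart muscle, which contracts without pause on oxidative ATP supply, is rich in these organelles.

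Polyadenylated RNA from post-mortem heart tissue of 38 captive-born chimpanzees was sequenced to ask how gene expression varies among individuals. RNA was extracted from frozen tissue in 2016 for 17 animals and in 2018 for 21. Part of the chimpanzee libraries came from an earlier study, and the paper's passages differ on their number. The 2016 libraries were taken here as that set, so library set and extraction year cannot be told apart. There were 22 females and 16 males, with a median age of 32 years (10 to 57) among the 34 animals whose age is given and none for the other 4. Tissue came from Yerkes (21 animals), SNPRC (13), New.Iberia (2), Md.Anderson (1) and Little.Rock.Zoo (1). No treatment was part of the comparisons, the part of the heart taken is not given in the sources used here, and some animals were first-degree relatives, so that they were not fully independent. The sample table notes a hepatitis virus for 7 animals of 2018, among them 4X0339 and 4X0354, and an HIV exposure for 1 animal of 2018. Such notes were not counted for the animals of 2016. The study reports that some animals from laboratories were challenged with hepatitis B or C virus. The part of the infections and of the HIV exposure in the results was not tested. The samples 554 and 554_2 share a number in their names and were kept as separate animals. RIN, the RNA integrity number, which falls as RNA degrades, was 2.5 in 4X0339, 8.4 in 558 and 5.9 at the median.

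The count totals over all genes were between 43892814 in Little_R and 132478050 in animal 476, and those over nuclear genes between 21513983 in 558 and 92850946 in 476. The members held between 49848 counts in Little_R and 514264 in 476, with a median of 229600. They took 0.220% of the nuclear counts in Little_R, 0.50% at the median and 0.666% in MD_And. Levels are given below as CPM, the count scaled to the nuclear library size, which was itself scaled by TMM (trimmed mean of M values), and log2 levels as log2(CPM + 0.5).

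Heart muscle markers were detected in every animal, but not evenly. The 12 muscle markers, genes of the sarcomere such as TNNT2 and ACTN2, summed to 10133 CPM in Little_R, 59872 CPM at the median and 95167 CPM in 4X0339. Their mean log2 level, called the muscle index below, was 9.07 in Little_R, 9.64 in 537 and 9.89 in 495, against a median of 11.89 and a highest value of 12.49 in 476. The 8 fibroblast markers, led by DCN, were at 9385 CPM in Little_R and 8402 CPM in 537, against a median of 1727 CPM. Little_R also had the lowest median correlation with the other animals (0.731, with 0.940 at the median of the animals), followed by 537 (0.806), 529 (0.838), 4X0354 (0.844), 558 (0.871) and 495 (0.878), and its total on exons orthologous to human was 0.635 of its nuclear total (0.872 at the median). The label heart therefore held for all animals, while Little_R, 537 and, less so, 495 stood apart in muscle markers, and results are given with and without Little_R and 537.

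The 13 mitochondrially encoded protein genes took 17.2% of the counts in 4x523, 30.4% at the median and 60.1% in 537. This mitochondrial share was also high in 558 (53.9%), 529 (52.7%), 4X0339 (51.7%), Little_R (48.3%) and 495 (45.3%). All 6 of these animals were extracted in 2018, and no animal of 2016 was above 35%.

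All 76 members were expressed, and all 76 passed the filter on low counts among the 15452 nuclear genes tested. Each reached 6 CPM in at least 1 animal, and 75 did so in every animal. The exception was MRPL45, whose protein lies at the exit of the nascent chain near the inner membrane, at 2.08 CPM in Little_R, 5.31 CPM at the median and 10.7 CPM in 438. The median level of a member lay between 5.31 and 267.25 CPM, and the middle of these medians was 54.2 CPM. The lowest count of any member in any animal was 39, where counting error alone is 16%.

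Most members rose and fell together from animal to animal. The mean log2 level over the 76 members was 4.84 in Little_R, 4.87 in 537 and 5.30 in 495, 5.76 at the median, 6.29 in 4X0339 and 6.3 in MD_And. Little_R was the animal with the lowest level for 37 members and 537 for 19, and 4X0339 was the highest for 29 and MD_And for 10. The highest animal was above the lowest by 4.18 times at the median member. Each member's Pearson correlation with the mean of the other members over the 38 animals had a median of 0.814 (0.823 with year means taken out), and 72 members were above 0.5. The member most like the rest was MRPL21, a large subunit protein with a bacterial counterpart (r = 0.936), at 14.1 CPM in Little_R, 33.2 CPM at the median and 57.3 CPM in MD_And. Its lowest and highest animals were those of the whole set. The members below 0 were MRPS6 (r = −0.311) and MRPL18 (r = −0.252), which are taken up below.

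The subunits moved as 1 group. The mean log2 level of the 49 MRPL members correlated with that of the 27 MRPS members at r = 0.989 (rho = 0.984, n = 38), with 0.981 among the 17 animals of 2016 and 0.993 among the 21 of 2018. MRPL means were 4.76 in Little_R, 5.72 at the median and 6.26 in MD_And, and MRPS means 4.96 in 537, 5.83 at the median and 6.41 in 4X0339. After extraction year and muscle index were taken out of both, r was 0.964. These values share libraries and library sizes and are a description.

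The exon count table gives a gene length and a position on Pan_tro_3.0 under the identifier of the human gene. That identifier was found for 13 members, and levels of different genes were compared only for these, as RPKM. RPKM is the count scaled to exon length and nuclear library size (n = 38). The highest were MRPL24 at 63.4 ± 12.7 RPKM (SD), MRPS16 at 54.3 ± 12 RPKM and MRPS15 at 51.3 ± 9.51 RPKM. The lowest were MRPL52 at 20.03 ± 4.23 RPKM, MRPS14 at 20.5 ± 2.93 RPKM and MRPL55 at 24 ± 6.97 RPKM. Between them, in falling order, lay MRPL28, MRPL37, MRPS21, MRPL20, MRPL43, MRPL11 and MRPL9, the last at 26.6 RPKM. Neighbours in this order differed by less than their spread in most places, since MRPL24 was above MRPS16 in 30 of 38 animals, MRPS15 above MRPL28 in 25, and MRPS14 above MRPL52 in 21. A gap that no animal crossed lay between MRPS21 (47.1 RPKM) and MRPL20 (35.4 RPKM), which was lower in 38 of 38 animals. Large and small subunit genes were thus mixed in this order.

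MRPL24 (human ENSG00000143314) lies on chromosome 1 from 134865487 to 134869764 on the minus strand, MRPS16 (ENSG00000182180) on chromosome 10 from 74439884 to 74443713 on the minus strand and MRPS15 (ENSG00000116898) on chromosome 1 from 35803639 to 35812416 on the minus strand. MRPL52 (ENSG00000172590) lies on chromosome 14 from 6566577 to 6571736 on the plus strand, MRPS14 (ENSG00000120333) on chromosome 1 from 153498039 to 153509722 on the minus strand and MRPL55 (ENSG00000162910) on chromosome 1 from 207145797 to 207148433 on the minus strand. These spans are those of the orthologous exons. Whether position goes with how members vary together was not tested.

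Reads from a stretch shared by overlapping genes cannot be assigned by strand, because the library kit does not mark it. In the RefSeq annotation of another chimpanzee assembly (NHGRI_mPanTro3-v2.0_pri), 74 members were found by symbol, and 32 of them overlapped another gene. For 9 members at least 10% of the span was shared, and their values are uncertain. For 8 of them the partner was a protein-coding gene, namely for MRPL19, MRPL53, MRPL54, MRPS6, MRPS14, MRPS16, MRPS18C and MRPS25, and MRPS33 lay wholly within a long noncoding RNA gene. The partner of MRPS6 was SLC5A3, which carries no symbol in the count table.

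The first comparison asked how the members follow the muscle content of the tissue piece. Members were higher in animals with more muscle marker RNA, in the large and in the small subunit alike. Of the 76 members, 71 rose with the muscle index and 2 fell. The median slope of the members was 0.42 log2 units per log2 unit of the index, so a doubling of muscle marker RNA came with a smaller proportional rise of the mitoribosomal protein genes. In bulk tissue, fewer muscle cells and less RNA of these genes per cell cannot be told apart. The tests were edgeR quasi-likelihood tests with Benjamini-Hochberg adjustment over all 15452 genes and extraction year as a covariate. Over all genes tested, 26.7% rose and 28.6% fell, with a median slope of −0.02.

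Among proteins of the large subunit, here by position in the known structure, which places MRPS18A and MRPS30 in it, 48 of 51 rose and 1 fell. Among those of the small subunit, 23 of 25 rose and 1 fell. By name series the medians were 0.43 for MRPL and 0.40 for MRPS. The 30 members without a bacterial counterpart all rose, with slopes from 0.16 to 0.77 and a median of 0.44. Of the 46 members with one, 41 rose, 2 fell and 3 were not called, with a median of 0.41. Whether these groups differ from each other was not tested.

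**Figure D1:**
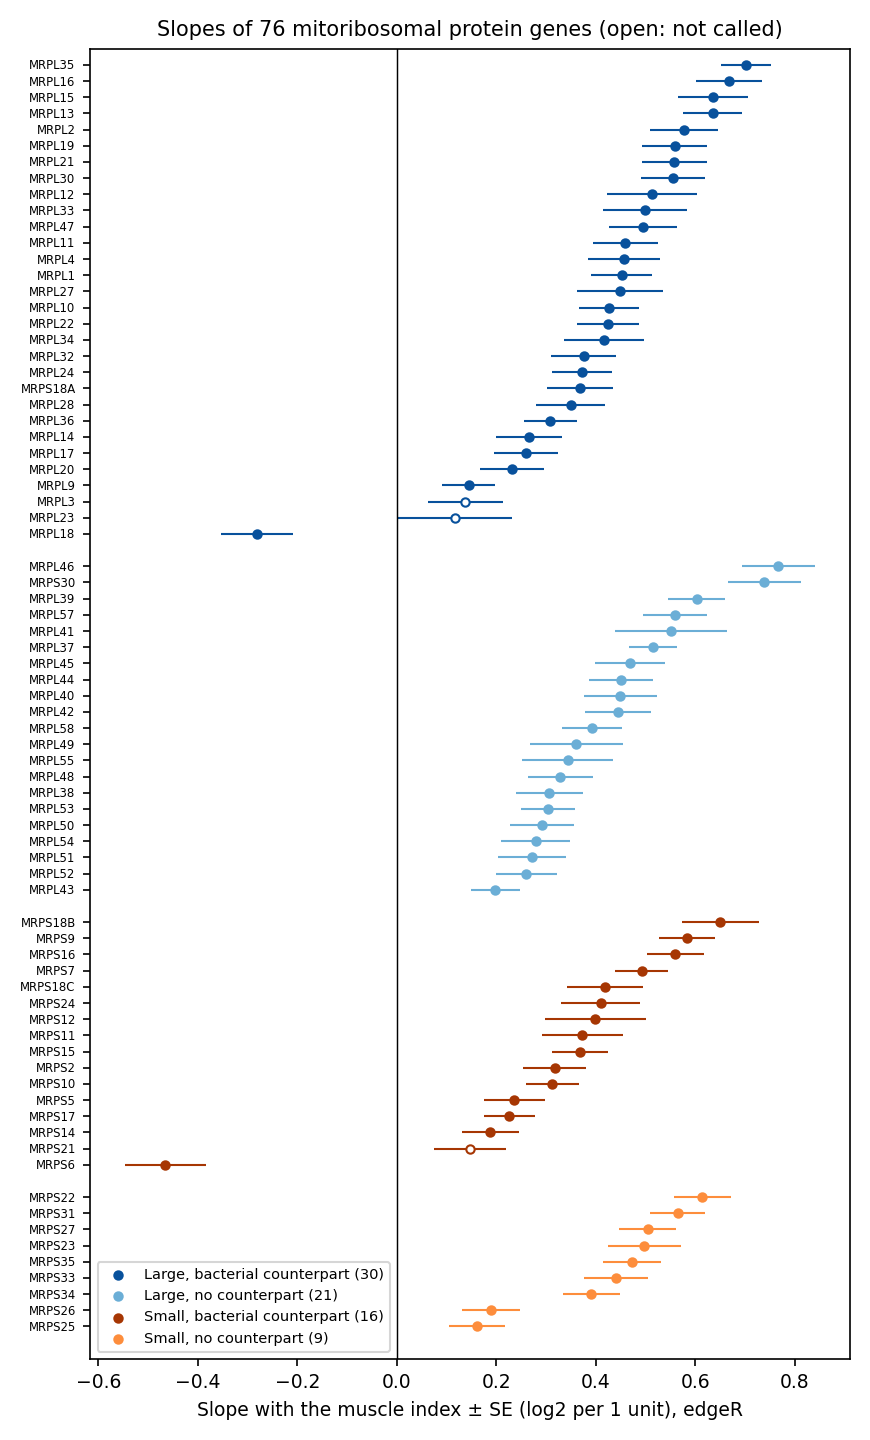
Slope of each of the 76 members with the muscle index (horizontal axis, log2 per unit of the index, from edgeR), with bars of ± 1 SE, grouped by subunit in the structure and by bacterial counterpart. Filled points passed an adjusted p of 0.05 and open points did not. The points lie right of 0 apart from MRPL18 and MRPS6, and without Little_R the slope of MRPL18 was 0.09 and that of MRPS6 −0.07, neither called.

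MRPL35, a large subunit protein with a bacterial counterpart, was at 39.8 CPM in Little_R, 159 CPM at the median and 255 CPM in 503. The animals low in muscle markers were low in it and the animals rich in them were high. Its slope was 0.70 ± 0.05 (SE, n = 38, adjusted p = 1.13e-13 by edgeR). MRPS22, a small subunit protein found only in mitochondria, was at 16.6 CPM in 537, 53 CPM at the median and 85.2 CPM in MD_And. Its slope was 0.61 ± 0.06 (adjusted p = 4.31e-11 by edgeR). MRPL13, of the large subunit, was at 24.1 CPM in 537, 75.9 CPM at the median and 136 CPM in 503, with a slope of 0.63 ± 0.06. For these genes Little_R and 537 were the lowest, and without both animals the slopes were 0.68, 0.56 and 0.58 in the same order, each still called by edgeR.

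MRPS6 and MRPL18 went the other way, and their calls rested on 1 animal. MRPS6, of the small subunit, was at 21.7 CPM in 4x0519 and 37.2 CPM at the median, and at 225 CPM in Little_R, where the next animal, 724, had 64.6 CPM. Its slope was −0.47 ± 0.08 (adjusted p = 1.05e-05 by edgeR). MRPL18, whose bacterial counterpart binds the smallest RNA of the large subunit, was at 12.6 CPM in 676, 20.8 CPM at the median and 81.3 CPM in Little_R, with 26.4 CPM in the next animal, MD_And. Its slope was −0.28 ± 0.07 (adjusted p = 0.00109 by edgeR). Little_R was thus far above all other animals in these 2 members while it was the lowest in 37 others. Without Little_R, the slope of MRPS6 was −0.07 (adjusted p = 0.472) and that of MRPL18 was 0.09 (adjusted p = 0.212, both by edgeR).

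MRPL3, MRPL23 and MRPS21 were not called in either direction. MRPL3, whose bacterial counterpart reaches toward the peptidyl transferase centre, had a slope of 0.14 ± 0.08 (adjusted p = 0.117), MRPS21 of the small subunit 0.15 ± 0.07 (adjusted p = 0.0818), and MRPL23, whose counterpart borders the exit of the nascent chain, 0.12 ± 0.12 (adjusted p = 0.404, all by edgeR). MRPS21 was at 37.9 CPM in 4x0519, 55.6 CPM at the median and 104 CPM in 4X0339. MRPL3 and MRPL23 are described with the mitochondrial share.

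Without Little_R and 537, 63 members rose with the muscle index and 0 fell by edgeR with Benjamini-Hochberg adjustment, where 18.6% of all genes rose and 21.3% fell. Unadjusted p was under 0.05 for 67 members, beside 49% of all genes, and the median slope was 0.43. Among the 17 animals of 2016 alone, 23 members rose, beside 3.48% of all genes, with a median slope of 0.38. Among the 21 animals of 2018, 72 rose, beside 27.6% of all genes. The slopes of the years were set against each other in 1 fit, and 0 members differed by edgeR (10 at an unadjusted p under 0.05, beside 14.3% of all genes, a similar share).

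The choice of library size moved all genes together. With totals on orthologous exons in place of TMM-scaled nuclear totals, 13.7% of all genes rose, 42.5% fell and their median slope was −0.22, while 52 members rose, 2 fell and the members' median was 0.29. With nuclear totals without TMM, 19.2% of all genes rose, 33% fell and their median was −0.10, and the members had 64 rises, 2 falls and a median of 0.36. The log2 TMM factor itself fell as the muscle index rose (r = −0.500, and −0.867 without Little_R and 537).

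The mean of the members correlated with the muscle index at r = 0.879 (rho = 0.889, n = 38), with 0.731 within 2016 (n = 17) and 0.928 within 2018 (n = 21). Without 537 and Little_R, the animals farthest from the median of the index, r was 0.798. The members' mean and the index share library sizes.

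**Figure D2:**
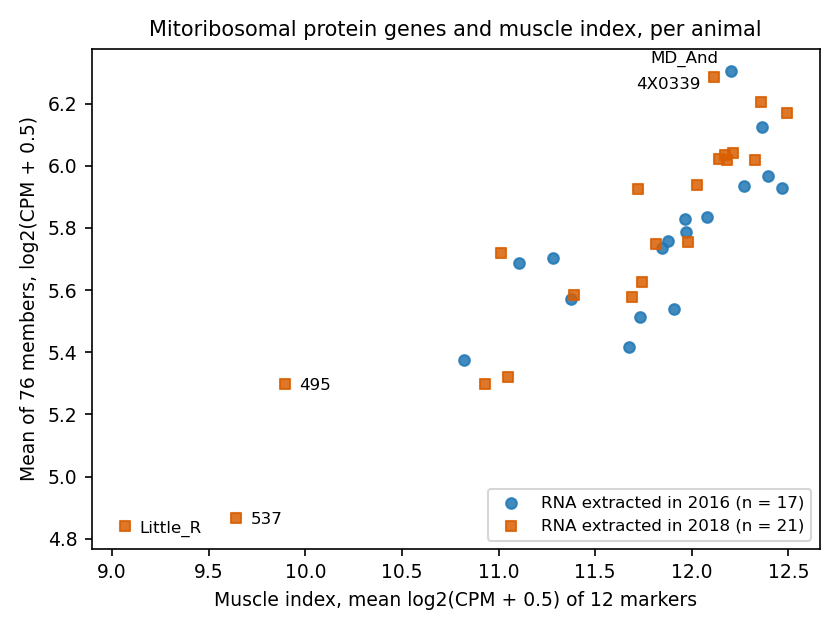
Mean log2(CPM + 0.5) of the 76 members (vertical axis) against the muscle index, the mean log2(CPM + 0.5) of 12 muscle markers (horizontal axis), with 1 point per animal, circles for RNA extracted in 2016 (n = 17) and squares for 2018 (n = 21). Little_R, 537 and 495 lie at the lower left, MD_And and 4X0339 have the highest member means, and r is 0.879 with all animals and 0.798 without Little_R and 537.

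Markers of other cell types moved with the muscle index too. By edgeR, 7 of 8 fibroblast markers and 6 of 7 endothelial markers fell with it, as did 1 of 5 smooth muscle markers (TAGLN) and 1 of 6 macrophage markers (CD68). Without 537 the falls were 5 of 8 fibroblast and 3 of 7 endothelial markers, and without Little_R 7 of 8 and 4 of 7, with 3 of 6 macrophage markers. With all animals, none of the 6 lymphocyte and 3 erythrocyte markers tested was called, at an adjusted or an unadjusted p under 0.05, and 2 of 4 adipocyte markers rose. Of 10 markers of muscle membrane and calcium handling, led by ATP2A2, 9 rose. The summed levels were 618 CPM in 676 and 9385 CPM in Little_R for fibroblasts, 782 CPM in 4X0267 and 2211 CPM in 95A014 for endothelium (led by VWF), and 228 CPM in 554 and 1859 CPM in 549 for smooth muscle (led by TAGLN). For macrophages they were 26.2 CPM in 554 and 510 CPM in 4x0430 (led by C1QA), for lymphocytes 1.20 CPM in 4X0357 and 181 CPM in 4x0043 (led by CD3E, with MS4A1 at 0 in some animals). For erythrocytes they were 0.852 CPM in MD_And and 7258 CPM in 529 (led by HBB, with SLC4A1 at 0 in some animals), and for adipocytes 18.7 CPM in 537 and 809 CPM in 4X0267 (led by PLIN4, with ADIPOQ and LEP at 0 in some animals). The part of these cell types in the members' levels was not tested.

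Most of the genes that work with the mitoribosome rose with the muscle index by edgeR, in each list a larger share than the 26.7% of all genes that rose. All 6 subunit genes under other names rose, with a median slope of 0.37, among them DAP3, a GTP-binding protein of the small subunit (0.62 ± 0.05, adjusted p = 7.43e-12 by edgeR). Of 25 genes of mitoribosome assembly 19 rose and 1 fell, with a median of 0.29, among them FASTKD2, which binds mitochondrial RNA (0.65 ± 0.07). Of 15 mitochondrial translation factors and partners 13 rose, with a median of 0.45, among them OXA1L, which inserts new proteins into the inner membrane (0.80 ± 0.05). Of 17 mitochondrial aminoacyl-tRNA synthetases 14 rose, with a median of 0.44, among them YARS2, which charges tyrosine (0.47 ± 0.05). Of 18 genes of mitochondrial transcription and RNA handling 15 rose, with a median of 0.34, among them LRPPRC, which stabilises mitochondrial messenger RNAs (0.71 ± 0.07).

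The second comparison set the members, which make the translation machine, against the RNA that this machine translates, the mitochondrial share. Over all 38 animals the members tended to be lower where the share was higher, but this depended on few animals and on the extraction year. By edgeR with extraction year as a covariate, 1 member rose and 23 fell with the share, while 19% of all genes rose and 18.6% fell. The share of members that fell was thus above that of all genes, and the share that rose was below it. The median slope was −0.11 per 10 percentage points of mitochondrial share, against 0.01 over all genes. Of the large subunit 1 rose and 15 fell, of the small subunit 8 fell, and falls were found among 11 of 46 members with and 12 of 30 without a bacterial counterpart.

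MRPL42, a large subunit protein found only in mitochondria, was at 19.3 CPM in 537, 43.2 CPM at the median and 63.5 CPM in 4X0550. The animal with the largest share was its lowest. Its slope was −0.33 ± 0.07 (adjusted p = 4.86e-04 by edgeR). MRPL19, of the large subunit, was at 8.22 CPM in 537, 28.4 CPM at the median and 42.3 CPM in 476, with a slope of −0.34 ± 0.08 (adjusted p = 0.00144 by edgeR). The values of MRPL19 are uncertain, since its span overlaps that of EVA1A. MRPL3 was at 26.7 CPM in 529, 45.7 CPM at the median and 81.1 CPM in 4x0025, with a slope of −0.24 ± 0.06 (adjusted p = 0.00175 by edgeR). It was low in 529, which is high in share, and high in 4x0025, which at 18.4% is low in it.

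MRPL23 was the member that rose, at 34.2 CPM in 462, 48.4 CPM at the median, 126 CPM in 4X0354 and 160 CPM in 4X0339. These 2 high animals had shares of 43% and 51.7%. Its slope was 0.34 ± 0.08 (adjusted p = 0.00265 by edgeR), and without 4X0339 it was 0.23 (adjusted p = 0.0249). Next on this side were MRPS6 (0.23 ± 0.11, adjusted p = 0.0875) and MRPS21 (0.12 ± 0.06, adjusted p = 0.119), neither called by edgeR, and without Little_R the slope of MRPS6 was −0.01.

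The number of members that fell with the share changed when 537 or 4X0339 was left out, and little when Little_R alone was. Without Little_R alone, 1 rose and 21 fell by edgeR, with a median slope of −0.10. Of all 15452 genes, 2116 rose and 3203 fell in that fit. Without 537, 3 rose and 6 fell by edgeR, beside 12.7% of all genes on each side. Without Little_R and 537, 3 rose and 3 fell, beside 7.86% of all genes that rose and 10.5% that fell, and the median slope was 0.01. Those that rose were MRPL23, MRPL41 and MRPL55, and those that fell were MRPL3, MRPL19 and MRPL42. Without 4X0339, in which 29 members had their highest level, 34 fell, beside 23.2% of all genes, and the median slope was −0.20.

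The years also differed. Among the animals of 2018, 37 members fell with the share by edgeR, beside 24.1% of all genes, with a median slope of −0.23. Among those of 2016 the median slope was 0.28, with 72 slopes above 0, and 0 members were called by edgeR, with 39 at an unadjusted p under 0.05, beside 19.3% of all genes. In the fit that tests the difference of the slopes, 2018 minus 2016, 30 members were lower and 0 higher by edgeR, beside 11.9% of all genes that were lower. At an unadjusted p under 0.05 there were 51 members, beside 38.2% of all genes. The median difference was −0.50, against 0.01 over all genes. Without Little_R and 537, 21 members were lower, beside 9.84% of all genes, and without 4X0339 53 were lower, beside 14.9%. Markers of cell content differed between the years in the same fit, with 5 of 12 muscle markers lower (median −0.84), 6 of 10 membrane and calcium markers lower (median −1.01) and 5 of 8 fibroblast markers higher (median 1.28), and their part in the members' difference was not tested. The interaction was fitted over unequal ranges of share, from 17.2% to 35% in 2016 and from 21.5% to 60.1% in 2018.

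MRPL42 had a slope of 0.22 within 2016 and −0.47 within 2018, a difference of −0.67 ± 0.14 (adjusted p = 0.00229 by edgeR). MRPL19 had 0.24 and −0.50, a difference of −0.71 ± 0.17 (adjusted p = 0.0038 by edgeR). MRPS30, which despite its name lies in the large subunit, had 0.35 and −0.57, a difference of −0.90 ± 0.24 (adjusted p = 0.00774 by edgeR). MRPL3 had slopes of −0.19 within 2016, not called, and −0.28 within 2018, and its difference of −0.07 ± 0.15 was not called (adjusted p = 0.763 by edgeR).

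The mean of the members correlated with the share at r = −0.335 (rho = 0.0290, n = 38), with 0.587 within 2016 (n = 17) and −0.572 within 2018 (n = 21, and −0.350 without 537 and Little_R). Without 537 and 558, farthest from the median share, r was −0.0846, and without 537 and Little_R −0.0324, so the pooled relation rested on those animals. Without 537 alone it was −0.177 and without 4X0339 −0.456. The muscle index itself had r = −0.494 with the share (rho = −0.0458, and r = −0.246 without 537 and Little_R), 0.505 within 2016 and −0.646 within 2018. In each year the members followed the share in the direction in which the muscle index did. After the muscle index was taken out, members and share had r = 0.238 over all animals, 0.371 within 2016 and 0.100 within 2018.

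**Figure D3:**
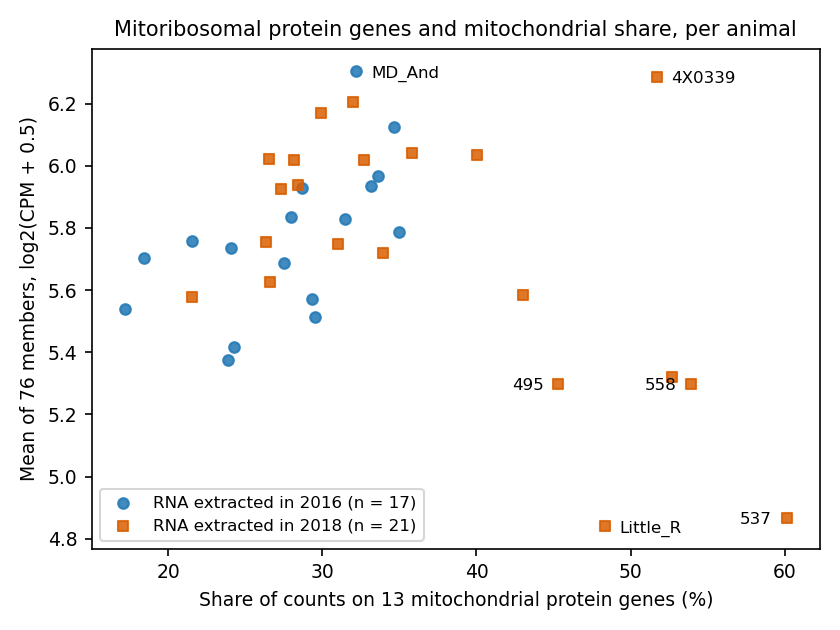
Mean log2(CPM + 0.5) of the 76 members (vertical axis) against the percent of counts on 13 mitochondrial protein genes (horizontal axis), with 1 point per animal, circles for RNA extracted in 2016 (n = 17) and squares for 2018 (n = 21). Within 2016 no animal is above 35%, and within 2018 537, Little_R, 495, 529 and 558 combine high shares with low member means while 4X0339 has a share of 51.7% and a high mean.

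With the muscle index and the share in 1 fit, fewer members fell with the share, more rose and most were not called. By edgeR 12 members then rose, 3 fell and 61 were not called, beside 4.77% of all genes that rose and 9.68% that fell, and the members' median slope was 0.02. The rises were MRPL12, MRPL23, MRPL28, MRPL41, MRPL51, MRPL55, MRPS12, MRPS15, MRPS21, MRPS24, MRPS26 and MRPS34, and the falls were MRPL3, MRPL19 and MRPL42. MRPL41, of the large subunit, was at 96.8 CPM in 570, 267.25 CPM at the median and 901 CPM in 4X0339, and its slope with the share was 0.39 ± 0.08 (adjusted p = 0.00171 by edgeR). MRPL12, the stalk protein whose bacterial counterpart recruits translation factors, was at 55.3 CPM in Little_R, 172 CPM at the median and 451 CPM in 4X0339, with 0.25 ± 0.07 (adjusted p = 0.012 by edgeR). Both had their highest level in 4X0339, the animal of lowest RIN.

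Some of the genes that work with the mitoribosome also fell with the share over all 38 animals, without the index in the fit, and these counts depended on single animals. By edgeR, beside 18.6% of all genes that fell, they were 3 of 6 subunit genes under other names (PTCD3, −0.32 ± 0.10), 7 of 25 assembly genes (NOA1, a GTPase of small subunit assembly, −0.32 ± 0.06) and 7 of 15 translation factors and partners (GFM1, an elongation factor, −0.36 ± 0.08). Of the aminoacyl-tRNA synthetases 11 of 17 fell and 1 rose (IARS2, for isoleucine, −0.40 ± 0.09), and of the transcription and RNA genes 7 of 18 fell (MTPAP, which adds poly(A) tails, −0.33 ± 0.06). Without 537 the falls were 0, 3, 4, 7 and 6 in the same order, beside 12.7% of all genes, about the share found among the assembly genes, and without 537 and Little_R 0, 2, 1, 4 and 3, beside 10.5%. Without 4X0339 they were 3, 14, 11, 12 and 12, beside 23.2%. Within 2016 none of these genes was called by edgeR, and the median slope of each list was above 0, from 0.10 to 0.28. Fibroblast markers (6 of 8) and endothelial markers (5 of 7) rose with the share over all animals, and muscle markers (5 of 12) and membrane and calcium markers (6 of 10) fell. Without 537 these counts were 2, 4, 3 and 4, and without 537 and Little_R 0, 1, 2 and 3. Their part in the members' slopes was not tested.

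The third comparison was between extraction years, which differ in library set and in animals as well. The members' mean log2 level had a median of 5.76 in 2016 and 5.75 in 2018. Between the years 1 member was higher in 2018 and 0 were lower by edgeR, beside 11.7% of all genes that were higher and 4.28% that were lower. At an unadjusted p under 0.05 there were 5 members, beside 30.4% of all genes, and DESeq2 gave 1 member higher, beside 13.4% of all genes, and 0 lower. The median difference was 0.04, against −0.00 over all genes.

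MRPS26, a small subunit protein found only in mitochondria, was at 36.4, 58.0 and 81.0 CPM (lowest, median and highest) in 2016 and at 45.5, 72.2 and 132 CPM in 2018. The years overlapped widely, and the highest animal was 4X0339. The difference was 0.31 ± 0.10 (adjusted p = 0.0267 by edgeR, n = 17 and 21), and without 4X0339 it was 0.21 (adjusted p = 0.0914). It was not called with RIN (0.24, adjusted p = 0.0577) or the mitochondrial share (0.25, adjusted p = 0.229) in the fit, nor among Yerkes animals alone (0.27, adjusted p = 0.218). It was called with the muscle index in the fit (0.37, adjusted p = 0.00392) and without Little_R and 537 (0.35, adjusted p = 0.0104, both by edgeR).

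No other member passed. On the higher side MRPL48 had a difference of 0.32 ± 0.13 (adjusted p = 0.0854) and MRPS6 of 0.42 ± 0.20 (adjusted p = 0.138), which was 0.10 without Little_R. On the lower side, by edgeR too, were MRPL34 at −0.36 ± 0.15 (adjusted p = 0.104), MRPL45 at −0.31 ± 0.15 (adjusted p = 0.149) and MRPL44, a relative of bacterial ribonucleases, at −0.25. With the muscle index in the fit 5 members were higher, beside 8.94% of all genes. Of the assembly genes 3 of 25 were higher in 2018, about the 11.7% found over all genes, METTL17 first (0.45 ± 0.09, adjusted p = 8.72e-04 by edgeR), while macrophage markers were lower (5 of 6) and 1 of 4 adipocyte markers, CIDEC, was higher. The part of these cell types was not tested.

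The fourth comparison was with RIN. Most members had slopes below 0, that is, lower levels where RNA was better preserved, but no test passed by edgeR. Of the 76 slopes 71 were below 0, with a median of −0.07 per RIN unit, against 0.00 over all genes. By edgeR with extraction year as a covariate 0 members rose and 0 fell, beside 0% of all genes in each direction. At an unadjusted p under 0.05 there were 36 members, beside 14.1% of all genes, and DESeq2 called 16, all lower, beside 0.828% of all genes that were lower. The mean of the members had r = −0.373 with RIN (n = 38), −0.525 within 2016 and −0.361 within 2018. Markers of cell content had slopes with RIN too, none called by edgeR. All 8 fibroblast markers were above 0 (median 0.22, 2 at an unadjusted p under 0.05), 8 of 12 muscle markers were below 0 (median −0.09, 1 at an unadjusted p under 0.05), and so were all 4 adipocyte markers (median −0.79, 3 at an unadjusted p under 0.05). All 6 lymphocyte markers (median −0.35, 1 at an unadjusted p under 0.05) and all 3 erythrocyte markers tested (median −0.32, 0 at an unadjusted p under 0.05) were below 0 too. Their part was not tested.

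MRPL55, of the large subunit, was at 12.8 CPM in Little_R, 32.7 CPM at the median, 50.4 CPM in 438 and 86.0 CPM in 4X0339, the animal of lowest RIN. Its slope was −0.19 ± 0.04 (adjusted p = 0.0725 by edgeR). MRPL28, of the large subunit, had −0.15 ± 0.03 (adjusted p = 0.0735) and MRPL12 −0.19 ± 0.05 (adjusted p = 0.0861, both by edgeR), and 4X0339 was the highest animal in each. On the other side MRPL18 had 0.08 (adjusted p = 0.410), MRPS6 0.08 (adjusted p = 0.584) and MRPL42 0.04 (adjusted p = 0.789, all by edgeR). Without Little_R the slopes of MRPL18 and MRPS6 were −0.0044 and −0.06.

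Variability between animals was measured as dispersion, the residual of the natural logarithm of a gene's negative binomial overdispersion from its trend on mean level, so that 0 is the variability usual for genes of that level. The members as a whole were near the middle of all genes. Their median was −0.0339 (jackknife SE 0.235), against −0.119 over 12659 genes, and 32 of 76 lay below the median of all genes. MRPL members had −0.0302 and MRPS members −0.0792, while muscle markers had 0.272 and fibroblast markers 1.82. The library size set the members' place, since the median was −0.401 with nuclear totals without TMM, with 55 members below the median of all genes, and −0.541 with totals on orthologous exons, with 62 below.

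The most variable members were MRPS6 at 0.718 (SE 1.35), MRPL46 at 0.670 (SE 0.267) and MRPS30 at 0.665 (SE 0.283). MRPS6 rested on Little_R, without which it was at −0.651. MRPL46 was at 13.3 CPM in Little_R, 53.3 CPM at the median and 99.0 CPM in 4X0339, and MRPS30 at 7.74 CPM in 537, 38.6 CPM at the median and 67.5 CPM in 503. These 2 large subunit members, both without a bacterial counterpart, were those with the steepest slopes with the muscle index, 0.77 ± 0.07 and 0.74 ± 0.07. Dispersion was fitted over the same animals without the index, so a steep slope itself adds to it. The least variable were MRPS17 at −1.20 (SE 0.263), MRPL9 at −1.12 (SE 0.235) and MRPL43 at −1.01 (SE 0.186). MRPS17, of the small subunit, was at 10.9 CPM in 529, 18.2 CPM at the median and 27.6 CPM in MD_And, MRPL9 at 20.2 CPM in 529, 31.4 CPM at the median and 47.2 CPM in 4x0025, and MRPL43 at 29.1 CPM in Little_R, 42.4 CPM at the median and 60.1 CPM in 438. Counts on orthologous exons were 74.4% of the gene counts for MRPL9 (r of log2 levels 0.906) and 139% for MRPL43 (0.850). The dispersion values are from the gene counts alone.

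Among 14122 other nuclear genes with a symbol, 442 had a correlation above 0.8 with the mean of the members over the 38 animals after year means were taken out. The most alike were STOML2, a protein of the inner mitochondrial membrane (r = 0.961), TACO1, a translational activator of a mitochondrial messenger RNA (0.958), SUCLG1, a subunit of succinyl-CoA ligase (0.956), NDUFA8, a subunit of respiratory complex I (0.948), and DAP3 (0.947). STOML2 was at 43.6 CPM in its lowest animal, 123 CPM at the median and 195 CPM in its highest. Without Little_R and 537 the correlations of these 5 were between 0.902 and 0.926.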

How the data were processed

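RNA was sequenced from 38 hearts as single-end reads of polyadenylated RNA, prepared with a kit that does not mark strand. The authors aligned reads with STAR 2.6.1b to Pan_tro_3.0 (Ensembl annotation) and deposited a count per gene for 31373 genes, and a second count table on exons orthologous to human, made with featureCounts 1.6.3 per the file headers. They also deposited a matrix for 37 animals and 13545 genes, in which each value is a score, log CPM standardized per gene and quantile normalized. Which strand setting was used is not given in the sources used here. A further 52 columns of per-sample values, mainly human, were not used.

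Extraction year, RIN, sex, age and center came from the study's sample table. Members and gene lists were chosen with earlier results of these data known. Mitochondrial genes were kept out of library sizes and tests. Genes were tested with edgeR 4.0.16 (quasi-likelihood, TMM, filterByExpr; R 4.3.3), adjusted by Benjamini-Hochberg over 15452 genes at 0.05, with extraction year as a covariate and 1 fit per covariate. The fits were checked on simulated counts. Dispersion used a LOESS trend (span 0.75, degree 1) over genes with at least 6 CPM in some animal, with a jackknife SE, in Python 3.11.15 with numpy 2.4.6, pandas 2.3.3, scipy 1.17.1 and statsmodels 0.14.6. Figures used matplotlib 3.10.9. The human gene of 13 members was identified through pairs of identifier and symbol in the study's tables.

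Named members were, by a fixed rule, per fit and direction those 3 of smallest p, the 3 highest and lowest in dispersion and per kilobase, and the most and least correlated with the rest. The 5 genes most alike and the gene with the smallest p of each related list were added. MRPL3, MRPL23 and MRPS21 in the muscle fit, members named in short lists of calls, MRPL41 and the coverage of overlaps were added after their values were seen. Whether a protein has a bacterial counterpart and which subunit holds it were set from general knowledge, and MRPL55 was moved out of the counterpart list in the course of the work.

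The alternatives were DESeq2 1.42.0, no filter on low counts, nuclear totals without TMM, totals on orthologous exons, the deposited matrix, another pseudocount, added covariates, each extraction year or Yerkes alone, animals left out, a log2 ratio for the share, another muscle index, a span of 0.3 and a minimum of 1 CPM in 19 animals.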

Additional observations from a re-analysis of the deposited data

Results flagged for a closer look

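The slope of members with the mitochondrial share differed between extraction years for 30 members, all lower in 2018, beside 11.9% of all genes that were lower. The test was that of the difference itself, edgeR's quasi-likelihood test of the interaction with Benjamini-Hochberg adjustment. Among the called members whose values are described in the report, the differences, 2018 minus 2016 in log2 per 10 percentage points, were −0.67 for MRPL42, −0.71 for MRPL19, −0.82 for MRPL13, −0.65 for MRPL48, −0.90 for MRPS30 and −0.60 for MRPL44. They were −0.66 for MRPL45, −0.66 for MRPL34, −0.65 for MRPS22, −0.69 for MRPL35 and −0.37 for MRPL43. Without Little_R and 537, 21 members were lower, beside 9.84% of all genes, and without 4X0339 53 were lower, beside 14.9%. Other members described there were not called, among them MRPL3 (−0.07, adjusted p = 0.763 by edgeR), MRPL12, MRPL18, MRPL21, MRPL23, MRPL28, MRPL41, MRPL46, MRPL55, MRPS6, MRPS21 and MRPS26. In the same fit 5 of 12 muscle markers (median −0.84) and 6 of 10 membrane and calcium markers (median −1.01) were lower and 5 of 8 fibroblast markers (median 1.28) higher, and their part was not tested. Shares above 35% were found in 2018 alone, and whether the unequal ranges play a part was not tested.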

How the results depend on the processing

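Alternatives added after seeing the data were those without 495 beside Little_R and 537, without 537, Little_R or 4X0339 alone, and the residuals from year and muscle index. Of the counts, correlations and the dispersion median, 61 values under an alternative kept direction and size and 42 did not. For all of the changes below the cause was not tested.

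The correlation of members and muscle index was 0.738 with exon totals, 0.819 with the deposited matrix, 0.798 without Little_R and 537 (the animals farthest from the median), 0.80 without 495 as well, 0.731 in 2016 and 0.928 in 2018. That of members and mitochondrial share was −0.0846 without the farthest animals (537 and 558), 0.587 in 2016, −0.0324 without Little_R and 537 and 0.0537 without 495 as well. That of the subunits was 0.984 without TMM, 0.974 with exon totals, 0.932 with the matrix, 0.981 in 2016, 0.984 without Little_R and 537, 0.983 without 495 as well and 0.964 for the residuals.

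With the muscle index, 23 members were called in 2016 alone, beside 3.48% of all genes that rose, where fewer animals were fitted. With the share, the number called was 9 without 537, beside 12.7% of all genes higher and 12.7% lower. Without Little_R and 537 it was 6, beside 7.86% higher and 10.5% lower. With the muscle index in the fit it was 15 (12 higher, 3 lower), beside 4.77% and 9.68%. In 2018 it was 38 (37 lower, beside 24.1% of all genes). In 2016 it was 0 by edgeR (39 at an unadjusted p under 0.05, beside 19.3%). It was 7 without Little_R, 537 and 495 (5 higher, 2 lower) and 6 without 537 and 558 (4 higher, 2 lower). For these last settings the share of all genes is not given here, and nothing about the members is read from them. Between years it was 5 with the muscle index added, all higher, beside 8.94% of all genes. It was 2 without TMM, with exon totals, or without Little_R, 537 and 495. The share of all genes under these 3 settings is not given here, and in the main fit 11.7% were higher and 4.28% lower. It was 0 by edgeR with RIN added, with the share added or without 4X0339 (5 unadjusted in each) and 0 among Yerkes animals (2 unadjusted). With RIN it was 16 by DESeq2 (beside 0.828% of all genes lower), all lower. It was 4 with the muscle index added (beside 20 of 15452 genes lower) and 1 in 2016 (beside 21 of 15452), all lower. It was 1, also lower, without a filter on low counts and 1 without Little_R, 537 and 495, where the share of all genes is not given here. The difference of share slopes between years was called for 53 members without 4X0339, all lower, beside 14.9% of all genes that were lower. The dispersion median was −0.541 with exon totals and −0.401 without TMM.

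Of single members, MRPL18 turned with the muscle index to 0.053 without Little_R and 537, to 0.19 without 495 as well, to 0.087 without Little_R and to 0.19 in 2016. With the share, MRPS6 turned to −0.0098 without Little_R and −0.049 in 2016, MRPL42 to 0.22 and MRPL19 to 0.24 in 2016. With RIN, where none was called, MRPL18 turned to −0.0066 without Little_R and 537, −0.0044 without Little_R and −0.094 in 2016, and MRPS6 to −0.065 without Little_R and 537, −0.066 without 495 as well, −0.059 without Little_R, −0.060 in 2016 and −0.022 with the muscle index added. Without a turn, calls of named members were lost 7 times with the muscle index, 4 with the share and 4 between years, and gained 6 times with the share, 4 between years and 8 with RIN.

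Related animals and several centers limit how far the tests reach beyond these animals, and RNA of 4X0339, the most degraded, weighed on several counts. The muscle index comes from the same libraries as the members. No alternative gave a measure of cell numbers or of protein. The human identifiers cover 13 of 76 members, and levels per kilobase were compared for those alone. No paired analysis was possible, since the extraction years hold different animals. Low counts were no limit for most members, the lowest being 39.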
